A study of Mus musculus with 6 samples.

Results

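The 36 genes described here encode the pyruvate dehydrogenase complex and its regulators, the enzymes of the citric acid cycle, and the reactions that refill the cycle or move its products. They were the rows whose gene name stood in a fixed list of 38 names, out of 13962 rows in the table. The names Mpc1 and Mpc2 matched no row, and the same 2 genes appear under their older symbols Brp44l and Brp44. No measured value entered the choice. The 36 comprised 26 enzymes, 6 regulators (4 kinases and 2 phosphatases of pyruvate dehydrogenase), 2 subunits of the mitochondrial pyruvate carrier and 2 genes of lipoylation.

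The cells were beige adipocytes from a C57BL/6 line of immortalized inguinal preadipocytes (Large T antigen) with genotype TLE3F/F CreERT2, so that all libraries carry floxed Tle3 alleles, an inducible Cre and the T antigen. Control cells (n = 3) received ethanol and the others (n = 3, labelled TLE3 knockout) received 500 nM 4-hydroxytamoxifen on day 4 for 24 hours, and poly(A) RNA was taken on day 10. Every group was grown in 10% serum with insulin (20 nM), T3 (1 nM) and rosiglitazone (1 uM), with isobutylmethylxanthine (0.5 mM), dexamethasone (0.5 uM) and indomethacin (0.125 mM) over the first 2 days of differentiation. The labels do not say whether replicates were separate cultures, so the spread behind the p-values is that of these libraries and may be technical. Tamoxifen was not given to cells without floxed alleles in this series, so effects of the compound, of Cre and of the deletion cannot be told apart.

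Pyruvate made by glycolysis enters the mitochondrion through a 2-subunit carrier and is turned into acetyl-CoA by the pyruvate dehydrogenase complex. Kinases switch the complex off by phosphorylating its alpha subunit, and phosphatases switch it back on. The citric acid cycle then oxidizes acetyl-CoA and hands the electrons to the respiratory chain, and anaplerotic enzymes such as pyruvate carboxylase replace intermediates that are drawn off, for instance as citrate for fatty acid synthesis. In brown and beige fat this oxidation feeds uncoupled respiration.

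Library totals ran from 14606228 to 19294632 counts. Tle3 itself stood at 151 to 152 CPM (a gene's counts scaled to the size of its library) in the controls and 287 to 294 CPM in the libraries labelled knockout. It was thus higher where it should have been deleted. The counts cover the whole gene and not only the floxed part, so they check nothing, and each direction below is that of the libraries labelled knockout relative to the controls. Control 3 stood apart from the other controls. In it the mean of 8 general adipocyte markers lay 0.23 below the average of the 6 libraries on the log2 scale, and that of 10 preadipocyte or fibroblast markers lay 0.30 above it. Control 3 was also the lowest of the 3 controls for 28 of the 36 genes and the lowest of all 6 libraries for 26. The same count was not made over all tested genes, so it may not be particular to these genes. Values without control 3 are therefore given where a result rests on it. In bulk RNA, fewer cells of a type and less RNA per cell cannot be told apart.

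Most enzymes rose, while the kinases and phosphatases of pyruvate dehydrogenase did not move together. In edgeR's quasi-likelihood test with Benjamini-Hochberg adjustment over 13192 tested genes, where a gene was called when its adjusted p was under 0.05, 17 of 26 enzymes rose (65.4%) against 6.91% of all tested genes. None of the enzymes fell, against 5.44% of all tested genes (0 at an unadjusted p under 0.05, and 0 with DESeq2 or limma-voom; 1, Nnt, without control 2, adjusted p 0.0491). Of the 6 regulators, Pdk2 rose and Pdk4 fell. Both carrier subunits rose, and neither lipoylation gene was called. In all, 21 of 36 members were called, 20 up and 1 down, where 12.3% of all tested genes were. The median log2 fold change was 0.24 over the enzymes and 0.09 over the regulators, against −0.0025 over all tested genes. The difference between enzymes and regulators was not tested.

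**Figure D1:**
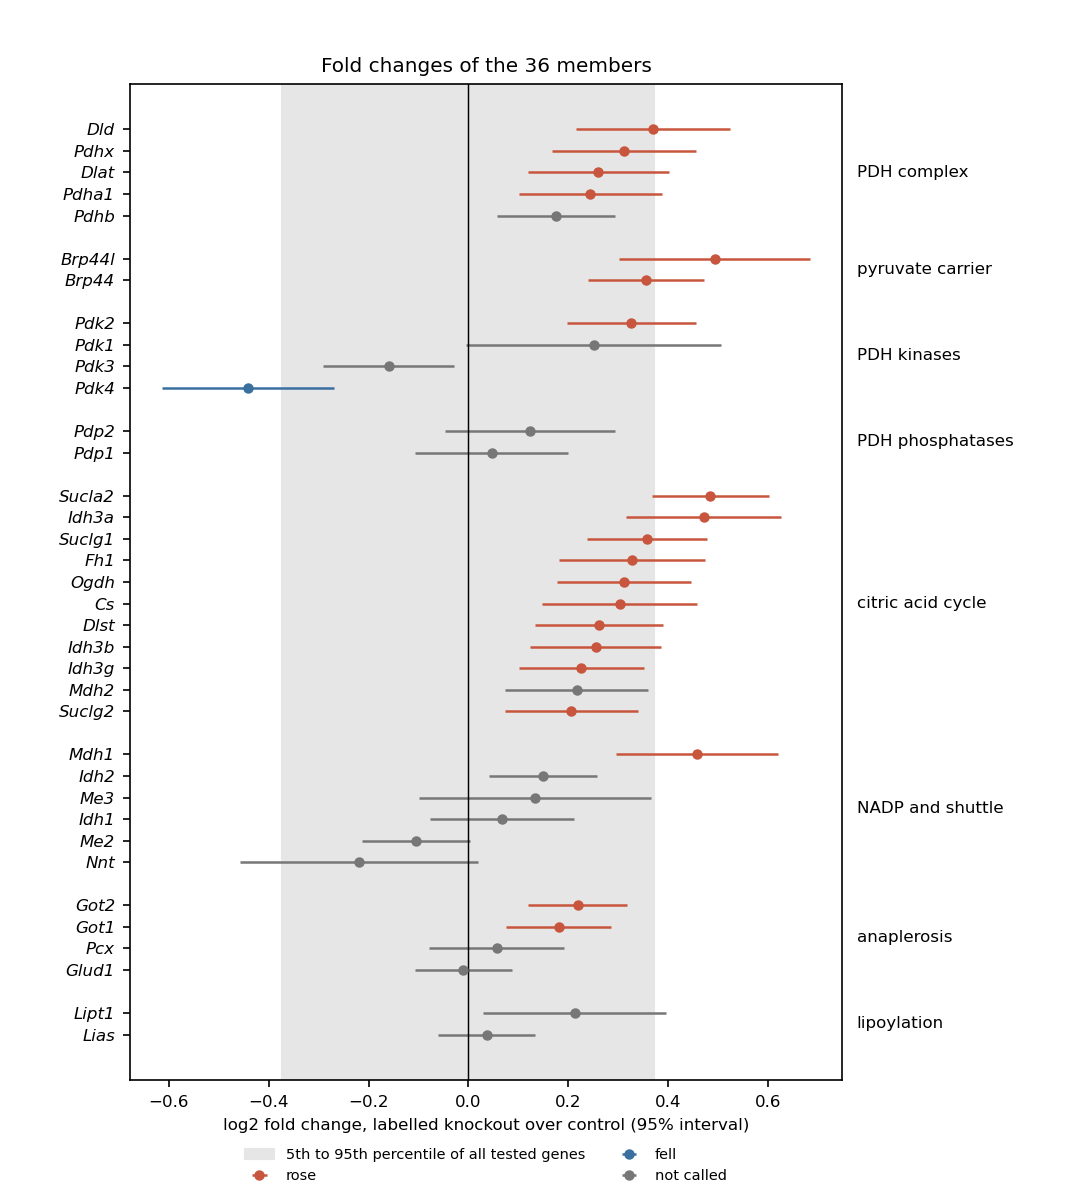
Log2 fold change (labelled knockout over control, x axis) of each of the 36 genes with its 95% interval, ordered by role; red marks genes that rose, blue the gene that fell and grey those not called, and the grey band spans the 5th to 95th percentile of all 13192 tested genes. The pyruvate dehydrogenase complex, the pyruvate carrier and the cycle lie to the right of 0 throughout, while the kinases reach from −0.44 (Pdk4) to 0.33 (Pdk2).

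The separation of single libraries gave a similar picture for the enzymes. All 3 libraries labelled knockout lay above all 3 controls for 20 of 26 enzymes, where 16.0% of tested genes did, and below them for 1 enzyme, Me2, where 15.8% did. Among the 6 regulators the groups separated for Pdk2 (above) and Pdk4 (below) and overlapped for the other 4. In each direction that is a share near that of all tested genes. The number of enzymes that rose was smaller in most fits without 1 library: 10 without control 1, 13 without control 3, 11 without knockout-labelled library 2 and 5 without knockout-labelled library 3. It was 16 without knockout-labelled library 1 and 19 without control 2. Each of these fits holds 5 libraries, and the reason for the differing counts was not tested. The median log2 fold change of the enzymes ran from 0.19 (without control 3) to 0.28 (without control 2) in these fits.

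**Figure D2:**
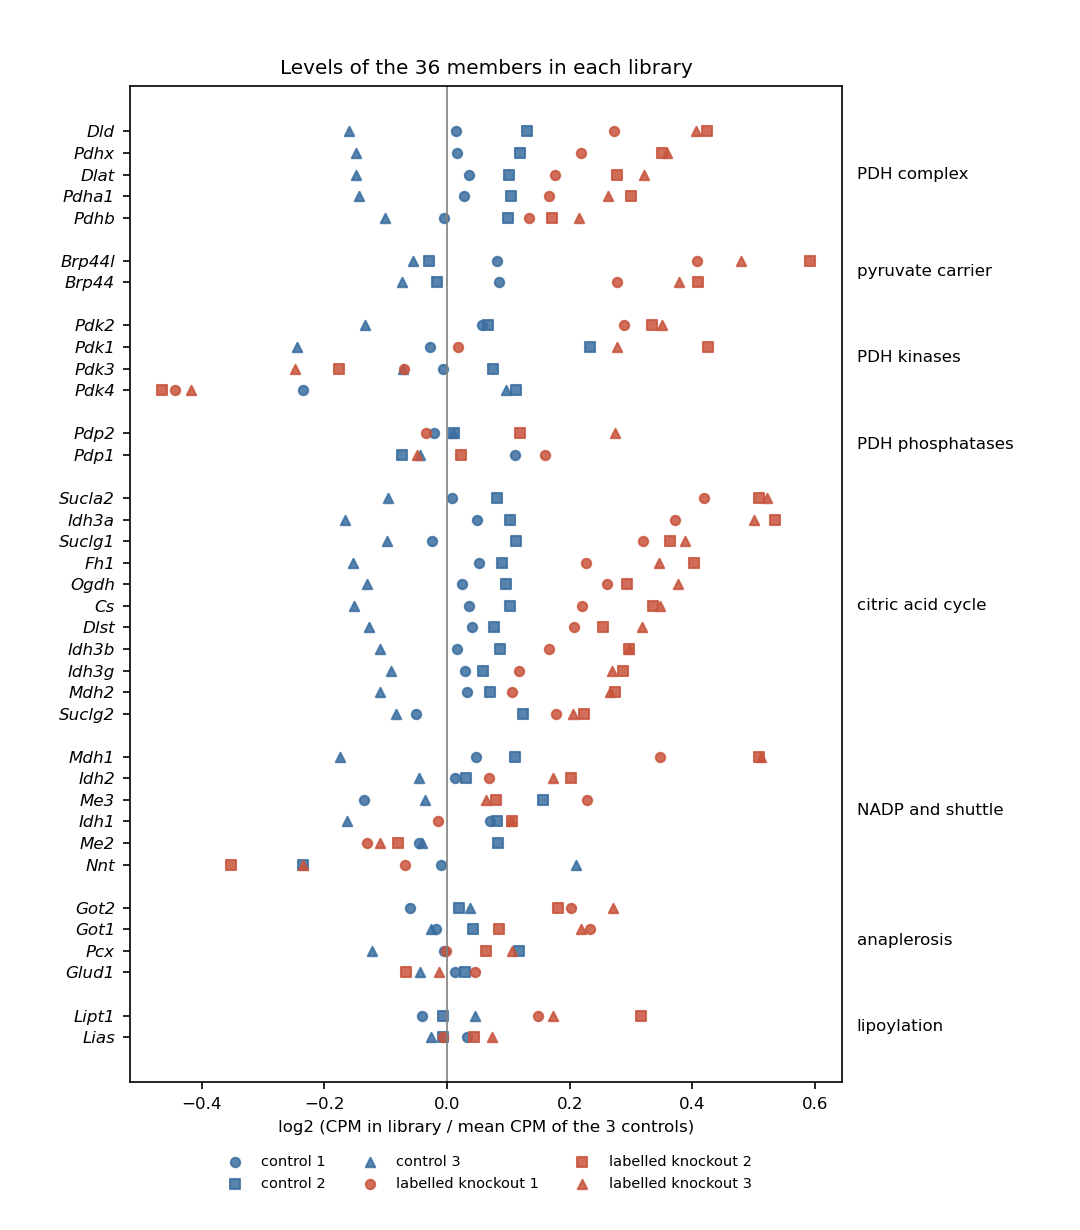
Level of each gene in each library as log2 of its CPM over the mean CPM of the 3 controls (x axis); blue symbols are controls, red symbols the libraries labelled knockout, and circle, square and triangle mark replicates 1, 2 and 3. Control 3 (blue triangles) is the lowest library for every gene of the pyruvate dehydrogenase complex and of the cycle, and library 1 (red circles) is the lowest of the libraries labelled knockout for each of these genes.

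Pyruvate entry showed some of the larger rises. Brp44 (ENSMUSG00000026568), a subunit of the pyruvate carrier, was at 126, 117 and 113 CPM in controls 1 to 3, with 143, 157 and 154 CPM for the libraries labelled knockout. The groups did not overlap, and the log2 fold change was 0.36 (SE 0.0528, 95% interval 0.24 to 0.47; edgeR adjusted p 0.00214). Its partner Brp44l (ENSMUSG00000023861) went from 11.8, 11.0 and 10.8 CPM to 14.8, 16.9 and 15.6 CPM. That is a 1.41-fold rise (log2 0.49, SE 0.0868; adjusted p 0.00540), the largest among the 36 genes, and it rests on 162 to 244 counts per library. In the GENCODE M21 transcripts, 26.3% of the 50-base windows of Brp44l also occur in other genes, so its level is uncertain if shared reads were dropped or split. Both calls held without any 1 library.

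Every subunit of the pyruvate dehydrogenase complex was higher in all 3 libraries labelled knockout than in all 3 controls (16.0% of all tested genes were). Of the 5 subunit genes of this complex, 4 rose (6.91% of all tested genes did). Dld, the dihydrolipoyl dehydrogenase that this complex shares with the 2-oxoglutarate and branched-chain complexes, was at 509.6, 552 and 452 CPM among controls and at 609, 677 and 668 CPM in the libraries labelled knockout. Its rise was 1.29-fold (log2 0.37, SE 0.0701; edgeR adjusted p 0.00734), the largest of the 5. Pdhx, which tethers Dld to the core, was at 137, 147 and 122 CPM against 158, 173 and 174 CPM (log2 0.31, adjusted p 0.0117). Dlat, the acetyltransferase of the core, was at 316, 330.2 and 278 CPM against 348, 373 and 385 CPM (log2 0.26, adjusted p 0.0236). The alpha subunit gene Pdha1, whose protein is the target of the kinases, was at 834, 880.2 and 741 CPM against 918, 1008 and 982 CPM (log2 0.24, adjusted p 0.0327). For its beta partner Pdhb the values were 451, 484 and 422 CPM against 497, 509 and 525 CPM. The difference just missed the threshold in edgeR (log2 0.17, 95% interval 0.06 to 0.29, adjusted p 0.0566, and 0.0108 without control 2). Pdhb passed it with DESeq2 (adjusted p 0.0373). In each of these genes control 3 was the lowest library. Of the 4 calls, that of Dld held without any 1 library. Pdhx lost its call without knockout-labelled library 3 (adjusted p 0.0673), Dlat without control 1 or knockout-labelled library 2 or 3 (0.0586 to 0.122), and Pdha1 without control 1, control 3 or knockout-labelled library 2 or 3 (0.0612 to 0.132). In M21, 12.9% of the windows of Pdha1 and 11.4% of those of Pdhb also occur in other genes.

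Of the 4 kinase genes, Pdk2 rose, Pdk4 fell and 2 were not called. Over all tested genes, 6.91% rose and 5.44% fell. Pdk4, the isoform induced by fasting and by fatty acids, was at 381, 485 and 479.9 CPM among controls and at 329.9, 325 and 336 CPM in the libraries labelled knockout. The controls spread widely, with control 1 nearest the other group, yet no control reached down to a library labelled knockout. The log2 fold change of Pdk4 was −0.44 (SE 0.0782, 95% interval −0.61 to −0.27; edgeR adjusted p 0.00548), and it stayed called without any 1 library, at −0.54 to −0.38. Pdk2, a broadly expressed isoform, was at 55.6, 56.0 and 48.7 CPM against 65.2, 67.3 and 68.1 CPM, a 1.25-fold rise (log2 0.33, SE 0.0584; adjusted p 0.00574) that also held without any 1 library.

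Pdk1 and Pdk3 were not called. Pdk1, an isoform known as a target of the hypoxia-inducible factor, was at 328, 393 and 282 CPM among controls and at 339, 449 and 405 CPM in the libraries labelled knockout. Its groups overlapped and its interval was wide (log2 0.25, 95% interval −0.01 to 0.51; edgeR adjusted p 0.188, and 0.0316 without control 2). Pdk3 was at 49.2, 52.0 and 47.0 CPM against 47.0, 43.7 and 41.6 CPM (log2 −0.16, 95% interval −0.29 to −0.03; adjusted p 0.106). Of the phosphatases, Pdp1 was at 36.5 to 41.4 CPM against 37.1 to 42.9 CPM (log2 0.05, 95% interval −0.11 to 0.20; adjusted p 0.716) and Pdp2 at 26.7 to 27.3 CPM against 26.4 to 32.7 CPM (log2 0.12, 95% interval −0.05 to 0.29; adjusted p 0.330). Both phosphatase intervals hold 0, and their upper ends lie near the size of the enzymes' changes.

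**Figure D3:**
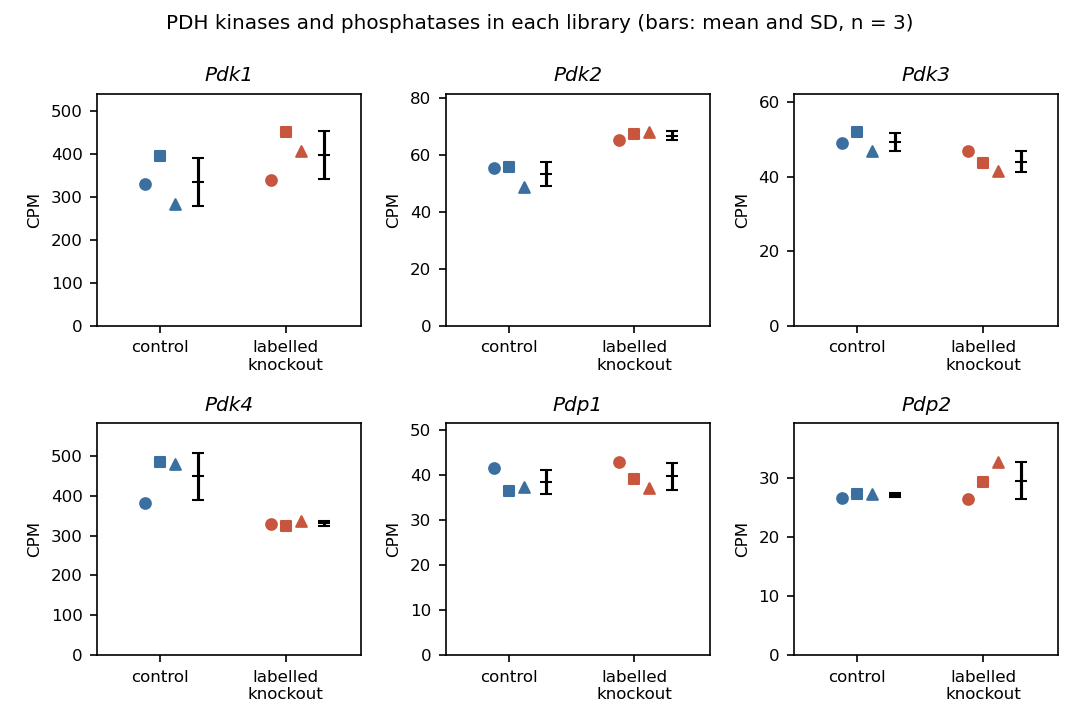
CPM (y axis, from 0) of the 4 kinase and 2 phosphatase genes in each library, with the mean and SD of each group (n = 3) beside the points; circle, square and triangle mark replicates 1 to 3. Pdk4 lies at 325 to 336 CPM in the libraries labelled knockout and at 381 to 485 CPM in the controls, Pdk2 separates the other way, and the other 4 genes overlap.

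The make-up of the kinase pool was read from the authors' deposited FPKM, a level per transcript length that they rounded to whole numbers. Pdk4 made up 58.0%, 60.9% and 65.9% of the summed kinase FPKM in controls 1 to 3, and 53.4%, 49.2% and 51.6% across the libraries labelled knockout. Pdk1 went from 22.3%, 22.2% and 17.5% to 24.7%, 30.5% and 28.0%, and Pdk2 from 9.57%, 8.0% and 7.58% to 11.8%, 11.2% and 11.5%. Pdk4 thus stayed the most abundant kinase transcript in every library. The summed kinase FPKM was 188, 225 and 211 in the controls and 178, 187 and 182 in the libraries labelled knockout. Divided by the FPKM of Pdha1, the kinase sum was 0.847, 0.970 and 1.06 against 0.727, 0.708 and 0.711, with no overlap between groups. The summed phosphatase FPKM was 16 to 17 against 17 to 18. These shares restate the changes of their parts and carry no test.

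**Figure D4:**
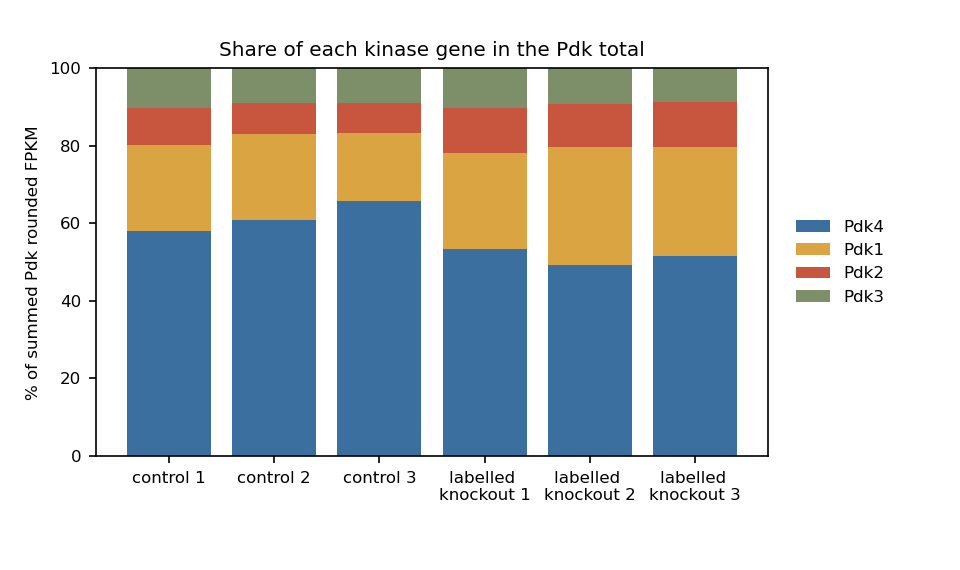
Share of each kinase gene (y axis, percent) in the summed rounded FPKM of Pdk1 to Pdk4, 1 bar per library. The Pdk4 share lies between 58.0% and 65.9% in the controls and between 49.2% and 53.4% in the libraries labelled knockout, with larger shares of Pdk1 and Pdk2 in the latter.

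Of the 11 cycle genes among the members, 10 rose and all 11 were higher in each library labelled knockout than in each control. Over all tested genes, 6.91% rose and 16.0% were higher in this way. Sucla2, the ADP-forming beta subunit of succinyl-CoA ligase, was at 394, 414 and 366 CPM among controls and at 523, 557 and 562 CPM in the libraries labelled knockout. It rose 1.40-fold (log2 0.48, SE 0.0532, 95% interval 0.37 to 0.60) with the smallest adjusted p of the 36 genes (edgeR, 0.000412). Suclg1, the alpha subunit that both forms of this enzyme share, was at 401, 440.4 and 381 CPM against 508, 524 and 533 CPM (log2 0.36, adjusted p 0.00251). Suclg2, the GDP-forming beta subunit, was far lower, at 38.0, 42.9 and 37.2 CPM against 44.5, 46.0 and 45.4 CPM (log2 0.21, adjusted p 0.0480). Its call was lost with DESeq2 (adjusted p 0.115), with library sizes in place of TMM (0.0528) and without any 1 library except control 2 (0.0797 to 0.150), and 16.0% of its windows occur in another gene. Per length, Sucla2 was at 93 to 103 FPKM in the controls and Suclg2 at 11 to 13 FPKM. The ratio of Sucla2 to Suclg2 counts was 10.4, 9.66 and 9.85 in the controls and 11.7, 12.1 and 12.4 in the libraries labelled knockout, without overlap, and was not tested.

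All 3 subunit genes of the NAD-dependent isocitrate dehydrogenase rose (6.91% of all tested genes did). Idh3a, the catalytic alpha subunit, was at 692, 718 and 596 CPM among controls and at 865, 968 and 946 CPM in the libraries labelled knockout, a 1.39-fold rise (log2 0.47, SE 0.0705; edgeR adjusted p 0.00224). Its partners also rose, Idh3b from 768, 807 and 704 to 853, 934 and 933 CPM (log2 0.25, adjusted p 0.0190) and Idh3g from 437, 446 and 402 to 464, 522 and 516 CPM (log2 0.23, adjusted p 0.0261). The ratio of Idh3a to Idh3b counts was 0.900, 0.890 and 0.846 against 1.01, 1.04 and 1.01, and that of Idh3a to Idh3g was 1.58, 1.61 and 1.48 against 1.86, 1.85 and 1.83. Neither ratio overlapped between groups, and neither was tested. The call of Idh3a held without any 1 library, that of Idh3b was lost without control 1 or knockout-labelled library 2 or 3 (adjusted p 0.0593 to 0.101), and that of Idh3g without these or control 3 (0.0585 to 0.130).

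Of the other 5 cycle genes, 4 rose (Cs, Ogdh, Dlst and Fh1), where 6.91% of all tested genes did, and Mdh2 was not called. Cs, citrate synthase, joins acetyl-CoA to oxaloacetate and was the most abundant cycle transcript per length in the libraries labelled knockout, at 946 to 1013 FPKM. In CPM it was at 2339.9, 2453 and 2057 in the controls and at 2660.5, 2882 and 2905 in the libraries labelled knockout (log2 0.30, SE 0.0706; edgeR adjusted p 0.0190). Ogdh and Dlst form the 2-oxoglutarate dehydrogenase complex with Dld. Ogdh went from 684, 720.0 and 615 CPM to 806, 825 and 874 CPM (log2 0.31, adjusted p 0.00828). Dlst went from 636, 652 and 567 CPM to 714, 738 and 771 CPM (log2 0.26, adjusted p 0.0152). Fumarase, Fh1, went from 394, 404 and 342 CPM to 444, 502 and 483 CPM (log2 0.33, adjusted p 0.0102). Mdh2, the mitochondrial malate dehydrogenase, missed the threshold at 1753, 1800.4 and 1589 CPM against 1846, 2072 and 2061 CPM (log2 0.22, 95% interval 0.07 to 0.36; adjusted p 0.0515). Mdh2 passed it with DESeq2 (0.00847), limma-voom (0.0448), library sizes in place of TMM (0.0462) or no filter on low counts (0.0486), and without control 2 or knockout-labelled library 1 (0.0247 to 0.0368).

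Support for the cycle genes depended on single libraries. The calls of Sucla2, Suclg1 and Idh3a held in each fit on 5 libraries, and 6 cycle genes rose when control 1 was dropped, 6 without knockout-labelled library 2 and 3 without knockout-labelled library 3. Without the last, adjusted p was 0.0567 for Ogdh, 0.0570 for Fh1 and 0.0914 for Dlst, and Cs was at 0.0555 to 0.0971 without control 1 or knockout-labelled library 2 or 3. All 11 log2 fold changes kept their sign in each of these fits.

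Promoter sequences of the members, called or not, were searched for simple motifs, so the shares below do not single out genes that moved together. RefSeq windows (GRCm38.p6) of 250 bases before to 50 bases after a start site were found for 32 of the 36 genes, 2 of them by their newer symbols, which gave 44 windows. Motifs were searched on both strands, with a match counted wherever its letters stood. CCGGAAG, the core that ETS factors such as GABP bind, was in 6 of the 44 windows (13.6%) and in 8.86% of all 32851 windows. TGACGTCA, the cAMP response element, was in 4 windows, of Mdh2 and Ogdh (9.09%, and 1.79% of all), and windows of Ogdh overlap each other. GCGCATGC, part of the NRF1 site, was in 3 windows (6.82%, and 2.71% of all). AAGGTCA, the site of estrogen-related receptors, was in 2 (4.55%, and 4.72% of all), and GTAAACA, a forkhead core, was in 0 (3.65% of all). CCCNNGGG, the EBF core, was in 8 windows (18.2%, and 13.7% of all). A match is only a match of letters. The members' windows are richer in CpG (median 20.5, against 7 over all windows) and in GC (61.2%, against 52.7%). CCGGAAG, TGACGTCA and GCGCATGC hold a CG, and no share was adjusted for base composition. Windows of Sucla2 (smallest adjusted p among the enzymes), Ogdh (chosen after its motifs were seen) and Pdk4 (the gene that fell) are printed. They set rising enzymes beside the falling kinase. Ogdh has several windows, and the printed one holds TGACGTCA alone of the 6 motifs. Other windows of Ogdh hold AAGGTCA or GCGCATGC instead, so the printed one does not stand out by its number of motifs. Each sequence runs 5′ to 3′ on the gene's strand, with matches in capitals.
Sucla2, chr14:73552536-73552835, plus strand: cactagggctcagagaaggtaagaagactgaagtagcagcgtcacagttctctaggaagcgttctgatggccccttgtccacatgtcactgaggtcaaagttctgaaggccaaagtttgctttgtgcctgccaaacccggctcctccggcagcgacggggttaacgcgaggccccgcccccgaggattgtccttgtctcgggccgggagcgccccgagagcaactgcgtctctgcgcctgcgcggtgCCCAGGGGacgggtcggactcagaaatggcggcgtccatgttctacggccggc
Ogdh, chr11:6291347-6291646, plus strand: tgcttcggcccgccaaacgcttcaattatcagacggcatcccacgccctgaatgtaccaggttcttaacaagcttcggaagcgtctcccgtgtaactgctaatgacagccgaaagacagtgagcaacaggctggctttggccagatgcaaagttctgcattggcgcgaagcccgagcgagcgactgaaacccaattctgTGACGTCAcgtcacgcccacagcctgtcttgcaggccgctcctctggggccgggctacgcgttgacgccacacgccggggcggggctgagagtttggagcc
Pdk4, chr6:5496229-5496528, minus strand: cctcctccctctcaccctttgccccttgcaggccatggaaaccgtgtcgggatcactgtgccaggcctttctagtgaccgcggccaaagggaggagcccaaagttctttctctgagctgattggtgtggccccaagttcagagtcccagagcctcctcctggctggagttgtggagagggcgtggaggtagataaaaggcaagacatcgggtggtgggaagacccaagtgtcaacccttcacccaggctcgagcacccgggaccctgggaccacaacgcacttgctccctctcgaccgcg

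The window of Sucla2 holds 1 EBF core beginning at −3 from the start site, and the printed window of Ogdh 1 cAMP response element beginning at −51. Windows of Suclg1 and Mdh1, enzymes that rose, are not printed and hold none of the 6 motifs, with 17 and 21 CpG dinucleotides. A lack of these motifs thus does not set the falling kinase apart from the rising enzymes. The Pdk4 window also holds none of the 6 motifs. It holds 12 CpG dinucleotides, against 24 for Sucla2 and 25 for Ogdh, a median of 20.5 over the members' windows and 7 over all windows.

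Of the 4 enzymes of the malate-aspartate shuttle, Mdh1, Got1 and Got2 rose (6.91% of all tested genes did). Mdh1, the cytosolic malate dehydrogenase of this shuttle, was at 781, 816 and 670.0 CPM among controls and at 962, 1075 and 1077 CPM in the libraries labelled knockout, a 1.37-fold rise (log2 0.46, SE 0.0737; edgeR adjusted p 0.00327) that held without any 1 library. The ratio of Mdh1 to Mdh2 counts was 0.446, 0.453 and 0.422 in the controls and 0.521, 0.519 and 0.523 in the libraries labelled knockout. That ratio was not tested. Both transaminases of the same shuttle rose. Got1, cytosolic, went from 171, 179 and 170.3 CPM to 204, 184 and 202 CPM (log2 0.18, adjusted p 0.0328). Got2, mitochondrial, went from 105, 111 and 112 CPM to 126, 124 and 132 CPM (log2 0.22, adjusted p 0.0107). The ratio of Got1 to Got2 overlapped between groups. Got1 lost its call without control 1, control 3 or knockout-labelled library 1 or 3 (adjusted p 0.0731 to 0.152) and Got2 without knockout-labelled library 3 (0.0673), and 25.6% of the windows of Got2 also occur in other genes.

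The NADPH-forming enzymes and the main anaplerotic enzymes were not called. Idh1, the cytosolic NADP-dependent isocitrate dehydrogenase, was at 489, 493 and 416 CPM among controls and at 461, 502 and 501 CPM in the libraries labelled knockout (log2 0.07, 95% interval −0.08 to 0.21; edgeR adjusted p 0.556). Its mitochondrial relative Idh2 was higher in each library labelled knockout, at 693, 702 and 665 CPM against 720.4, 789.9 and 774 CPM (log2 0.15, adjusted p 0.0703). The NAD(P)-dependent malic enzyme Me2 was at 68.3, 74.7 and 68.6 CPM against 64.4, 66.7 and 65.4 CPM (log2 −0.11, adjusted p 0.193), without overlap. Me3, the mitochondrial NADP-dependent form, was near 10 CPM throughout, at 8.57 to 10.5 CPM against 9.84 to 11.0 CPM (adjusted p 0.448). Nnt, the transhydrogenase that makes NADPH from NADH, was at 28.6, 24.5 and 33.4 CPM against 27.5, 22.6 and 24.5 CPM (log2 −0.22, 95% interval −0.46 to 0.02; adjusted p 0.217). Of the windows of Nnt, 47.0% occur under another gene ID as well, so its level is uncertain.

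Pyruvate carboxylase, Pcx, which makes oxaloacetate from pyruvate, was abundant, at 829.8, 904 and 765 CPM among controls and at 832, 870.1 and 897 CPM in the libraries labelled knockout. Its groups overlapped, and its interval (log2 0.06, −0.08 to 0.19; edgeR adjusted p 0.601) lies below the estimate for 16 of the 17 enzymes that rose. Glud1, the glutamate dehydrogenase that yields 2-oxoglutarate, was the steadiest of the enzymes, at 231, 234 and 222 CPM against 237, 219 and 227 CPM (log2 −0.01, 95% interval −0.11 to 0.09; adjusted p 0.912). Per length, Pcx was at 182 to 211 FPKM in all libraries and Glud1 at 53 to 58 FPKM.

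The lipoyl groups on Dlat, Dlst and the branched-chain complex are made by Lias, the lipoyl synthase, and moved by lipoyltransferases such as Lipt1. Lias was at 77.8, 75.7 and 74.7 CPM among controls and at 75.7, 78.4 and 80.0 CPM in the libraries labelled knockout (log2 0.04, 95% interval −0.06 to 0.13; edgeR adjusted p 0.639). Lipt1 was at 12.3, 12.7 and 13.1 CPM against 14.1, 15.8 and 14.3 CPM, without overlap (log2 0.21, 95% interval 0.03 to 0.40; adjusted p 0.123). Of these 2 genes, 0 were called by edgeR, DESeq2 or limma-voom, and 1 (Lipt1) had an unadjusted p under 0.05. In a further list of lipoate supply and lipoylated complexes, 9 of 16 tested genes rose (6.91% of all tested genes did) and 0 fell (0 at an unadjusted p under 0.05, and 0 with DESeq2 or limma-voom), with a median log2 fold change of 0.21. Among them were the iron-sulphur cluster genes Isca2 (log2 0.34, adjusted p 0.00223) and Bola3 (0.35, 0.0117) and the branched-chain complex genes Dbt (0.33, 0.00762) and Bckdhb (0.32, 0.0109). Of this list 5 genes rose when control 1 was dropped, 4 without control 3, 5 without knockout-labelled library 2 and 3 without knockout-labelled library 3, where Bola3 lost its call (adjusted p 0.0683).

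Levels per length spanned a wide range. In the controls the median of the rounded FPKM was 144 over the enzymes and 18.5 over the kinases and phosphatases. Cs (738 to 863 FPKM) and Mdh2 (772 to 858) led and overlapped each other, and Pdhb (288 to 325) and Mdh1 (265 to 316) followed, also overlapping. Nnt (3 to 4 FPKM) and Me3 (1 FPKM) were the lowest enzymes. Pdk4, at 109 to 139 FPKM, was the only regulator above 50 FPKM in any control, and it lay above Dlat (58 to 67), Suclg1 (84 to 95) and Sucla2 (93 to 103).

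Other genes of the pathway were read from lists written beside the members, against 6.91% of all tested genes that rose and 5.44% that fell. Of 9 further genes (Aco1, succinate dehydrogenase subunits, the phosphatase regulator Pdpr and others), 5 rose and 0 fell (0 at an unadjusted p under 0.05, and 0 with DESeq2 or limma-voom). Those that rose included Aco1 (log2 0.20, edgeR adjusted p 0.0434) and the succinate dehydrogenase subunits Sdhb (0.36, 0.00204), Sdhc (0.22, 0.0430) and Sdhd (0.31, 0.0144). Of these, Sdhb held its call without any 1 library, Sdhd lost it without knockout-labelled library 2 or 3 (adjusted p 0.0583 to 0.0778), and Aco1 and Sdhc in most such fits (0.0585 to 0.168). The genes of this list that rose were then 3 with control 1 dropped, 3 without control 3, 2 without knockout-labelled library 2 and 1 without knockout-labelled library 3. Of 16 carriers and cytosolic enzymes, 4 rose and 1 fell, the latter a share near that of all tested genes. The 2-oxoglutarate carrier Slc25a11 (log2 0.30, adjusted p 0.00578), the aspartate-glutamate carrier Slc25a12 (0.24, 0.00826), Pck1 (0.53, 0.000561) and the alanine transaminase Gpt (0.58, 0.00115) rose. The mitochondrial alanine transaminase Gpt2 fell (−0.23, 0.00888). Slc25a12 lost its call without knockout-labelled library 3 (adjusted p 0.0520). In this list 3 genes fell with library sizes in place of TMM, and 2 without control 3 or with the replicate block.

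The surroundings of Pdk4 and Pdk1 were described through 3 more lists. Their counts are to be read against the same shares of all tested genes, 6.91% that rose and 5.44% that fell. A single gene of a list this short is near such a share. Of 9 genes for factors known to induce Pdk4, Ppara (log2 0.43, edgeR adjusted p 0.00330), Esrra (0.45, 0.00198) and Ppargc1a (0.32, 0.00324) rose and 0 fell (0 at an unadjusted p under 0.05, and 0 with DESeq2 or limma-voom), while Pdk4 itself fell. The 6 uncalled genes of this list had log2 fold changes of 0.18 (Ppard, adjusted p 0.0537, groups not overlapping), 0.16 (Pparg), 0.09 (Klf15), 0.02 (Foxo1), 0.01 (the glucocorticoid receptor gene Nr3c1) and −0.03 (Foxo3), and 5 of the 9 were higher at an unadjusted p under 0.05. Of 11 known targets of FOXO factors, PPARs or the glucocorticoid receptor, 1 fell, the carnitine palmitoyltransferase gene Cpt1a (log2 −0.30, adjusted p 0.00802), and 0 rose (1 at an unadjusted p under 0.05, and 0 with DESeq2 or limma-voom). Of 11 hypoxia targets, 0 were called (3 at an unadjusted p under 0.05, all higher, and 0 with DESeq2 or limma-voom). In the fits that dropped control 2, 3 of them rose, and 3 without knockout-labelled library 1 and 3 with the replicate number as a block.

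The levels of the enzymes and of markers of cell state are given side by side for each library. The mean log2 deviation of the 26 enzymes from the average of the 6 libraries was −0.10, −0.031 and −0.20 in controls 1 to 3, against 0.065, 0.12 and 0.14 for the knockout-labelled libraries. For the 8 general adipocyte markers it was −0.032, 0.013 and −0.23 against −0.012, 0.15 and 0.11. For the 10 preadipocyte or fibroblast markers it was 0.054, −0.020 and 0.30 against −0.035, −0.23 and −0.065. The summed CPM of the adipocyte markers ran from 11058 to 13245 in the controls and from 12505 to 14384 in the libraries labelled knockout, and that of the preadipocyte or fibroblast markers from 8273 to 9492 and from 8047 to 8455. Over all tested genes, 6.91% rose and 5.44% fell, and the count for each marker list is to be read against these shares. Of the adipocyte markers 2 rose, Lipe (edgeR adjusted p 0.0368) and Cd36 (0.0455), and 0 fell (1 at an unadjusted p under 0.05, 1 with DESeq2 and 0 with limma-voom). Both lost their calls without control 1, control 3 or knockout-labelled library 2 or 3 (0.0612 to 0.174). At an unadjusted p under 0.05, 6 of the 8 adipocyte markers were higher. With DESeq2 3 of them rose, and 5 rose in edgeR without control 2. The median log2 fold change of the adipocyte markers was 0.20, against 0.24 for the enzymes. For the 8 beige or brown markers the mean deviation was −0.14, −0.094 and −0.29 against 0.069, 0.28 and 0.17. Of these 5 rose, led by Cidea (log2 1.04), Cox8b (0.41), the uncoupling protein gene Ucp1 (0.54) and Cox7a1 (0.49), and 1, the fatty acid elongase gene Elovl3 (−0.66, adjusted p 0.0469), fell in edgeR but not with DESeq2 or limma-voom. Of the preadipocyte or fibroblast markers Dlk1 rose (0.72), and Lum (−1.04), Dcn (−1.01), Thy1 (−0.42) and Pdgfra (−0.38) fell. Macrophage markers summed to 3.65 to 5.39 CPM and endothelial markers to 1.96 to 3.55 CPM in any library, and 1 of 7 muscle markers, Acta1, had a row, at 10.3 to 12.5 CPM summed. The part of these marker differences in the enzymes' rise was not tested.

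**Figure D5:**
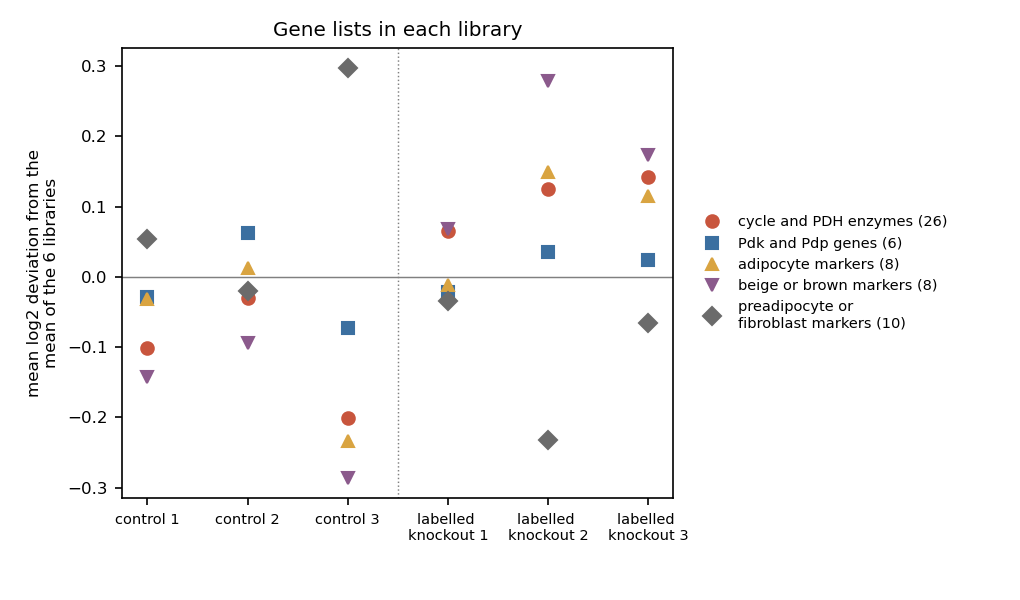
Mean log2 deviation from the average of the 6 libraries (y axis) for the 26 enzymes, the 6 kinase and phosphatase genes and 3 marker lists in each library (x axis). Control 3 is lowest for the enzymes (−0.20) and the adipocyte markers (−0.23) and highest for the preadipocyte or fibroblast markers (0.30). The mean of the regulators joins genes that moved in opposite directions.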

How the data were processed

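The authors deposited whole-number read counts per gene for 6 libraries, per the file headers, which were the values analysed, and FPKM rounded to whole numbers, treated as a score and used only for levels per length. Per the submitters' processing notes, Novoalign 2.8, Picard, DESeq2 and the build mm9 were used, in roles that are not stated; the counter, its annotation, its strand setting and how it treated shared reads were not given in the sources used here. Each of the 13962 rows had at least 10 counts in some library, so low genes had been left out; 7 rows had no name, and a name held by several rows took the row with most counts. The count test was edgeR 4.0.16 under R 4.3.3: the expression filter kept 13192 genes (770 set aside), including all 36 members, libraries were scaled by TMM, and the quasi-likelihood test used the group alone, with Benjamini-Hochberg adjustment. CPM use TMM-scaled library sizes. SE is the log2 fold change over the square root of F, and 95% intervals use the test's degrees of freedom. The fit was tested on simulated data. Library pairs within a group differed by more than counting noise (chi-square per degree of freedom 2.88 to 7.53).

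Same-numbered libraries did not deviate together (correlations −0.040, 0.19 and 0.031), so numbers were not treated as pairs. Alternatives were DESeq2 1.42.0 and limma-voom (limma 3.58.1), other scalings, no filter, a replicate block and leaving out each library. All members are named; from a list, all changed genes were named if 5 or fewer, otherwise the 4 with the smallest adjusted p in each direction; 1 gene of the lists is not reported here. Members, lists and tests were chosen with earlier results of these data known. Shared sequence was counted as 50-base windows of a gene's GENCODE M21 transcripts that occur in another gene's. The 4 members without a promoter window were left out of the motif counts.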

Additional observations from a re-analysis of the deposited data

How the results depend on the processing

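Scaling, test and filter left the counts of called genes, members, enzymes and regulators within 1.5 times of those reported: with relative log expression factors, library sizes alone, DESeq2, limma-voom or no filter, 21 or 22 members and 17 or 18 enzymes were called, and of the 36 log2 fold changes none changed sign. In the smaller lists, falls among carriers and cytosolic enzymes went from 1 to 3 with library sizes alone and the fall of Elovl3 was lost with DESeq2, limma-voom and the replicate block. Library sizes alone moved the median of all genes from −0.0025 to −0.018. The cause of the lost and gained calls was not tested. Leaving out 1 library had more effect: all changed genes then numbered 621 to 1895, members 9 to 25, enzymes 5 to 20, kinases and phosphatases 2 to 3, and other genes of the pathway 12 to 28, with medians of 0.19 to 0.28 for the enzymes and 0.068 to 0.11 for the kinases and phosphatases. In these fits 5 uncalled values changed sign: Pdp1 (−0.012 without knockout-labelled library 1), Idh1 (−0.0066 without control 3) and Glud1 (−0.037 to 0.017 over these fits, with 0.0011 without control 1, 0.0050 without control 2 and 0.017 without knockout-labelled library 2). With the replicate number as a block, 1809 genes, 22 members, 17 enzymes and 3 kinases and phosphatases were called, Pdk1 being added (adjusted p 0.0440), 3 of 11 hypoxia targets rose where 0 had, 2 carriers and cytosolic enzymes fell where 1 had, and libraries did not all correlate best with their own number. Genes near 10 CPM, such as Me3, Brp44l and Lipt1, rest on 144 to 257 counts per library, which limits the precision of their values.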
